A study of Mus musculus with 12 samples.

Results

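The genes that build cholesterol and turn it into steroid hormones were followed in mouse fetal testes with and without Dmrt1, in 2 inbred strains. The list held 29 genes: enzymes of sterol synthesis, regulators of that synthesis, genes of cholesterol transport, and genes of steroid hormone synthesis in fetal Leydig cells. A probe set, the unit the array measures, was taken for a gene where the platform annotation assigned it to that gene alone. In this way 27 of the 29 genes were found, with 59 of the 45101 probe sets, among 18193 genes that could be named on the array. Insl3, whose 2 probe sets are shared with Jak3, and Fdxr, with none of its own, were left out of the array results and enter only the counts of promoter windows.

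The samples were mouse testes at stage E15.5, each on 1 Affymetrix array. Within each strain, 129Sv or B6, 3 wild-type samples stood against 3 from Dmrt1 knockouts, which makes 4 groups. Dmrt1 encodes a transcription factor of Sertoli cells and germ cells. The sample labels say knockout, whereas the design text of the series speaks of a conditional removal and names no Cre driver, and the growth protocol gives another age than the sample labels. The labels do not say whether the arrays of a group held separate animals or pools, so p-values measure the spread between these arrays.

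Cholesterol is made from acetyl units through mevalonate, squalene and lanosterol. When membrane sterol is low, SREBP transcription factors leave the endoplasmic reticulum and raise the genes of the whole route, and INSIG proteins hold them back when sterol is plentiful. In the fetal testis, Leydig cells in the interstitium carry cholesterol into mitochondria and convert it to androgens under the nuclear receptor SF-1, the product of Nr5a1.

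Replicate arrays correlated at 0.974 to 0.996, and the median intensity of an array lay between 17.3 and 19. The labels held for the targeted gene: Dmrt1 intensity was 924 to 1180 on the 129Sv wild-type arrays and 145 to 181 on the 129Sv knockout arrays, or 16% of the wild-type level (log2 difference -2.64 ± 0.17 SE, limma adjusted p = 4.72e-07). In B6 it was 795 to 1090 in wild type and 64 to 86.4 in knockout, or 7.58% (-3.72 ± 0.17, limma adjusted p = 1.97e-08), and the two-sided exact permutation test gave p = 0.1 in each strain, the smallest that 3 against 3 arrays allow. B6 knockout replicate 3 stood apart. The Actb signal at the 3′ end over that at the 5′ end, a ratio that rises as RNA is degraded, was 6.3, against 5.24 on 129Sv knockout replicate 1, 3.91 on 129Sv wild-type replicate 2 and 1.99 to 2.79 on the other 9 arrays. Where a call of a named gene was lost without B6 knockout replicate 3, this is stated with it, but not for single probe sets. In these bulk samples, fewer cells of a type and less RNA per cell cannot be told apart.

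Promoter sequences are shown first for examples of the genes described below: 5 of the sterol enzymes that were lower in 129Sv than in B6 (Pmvk, Cyp51, Sc5d, Ebp and Lss), Hmgcs1, and Cyp11a1 as a steroidogenic gene. Hmgcs1 was the gene called in the B6 knockout, although its other bright probe sets went the opposite way. They are RefSeq promoter windows of GRCm38.p6, a B6 genome, so they do not show the 129Sv sequence. The stretches are chr13:119690151-119690350 (forward strand) for Hmgcs1, chr3:89454391-89454540 (forward) for Pmvk, chr5:4104698-4104847 (reverse) for Cyp51, chr9:42264301-42264450 (reverse) for Sc5d, chrX:8193513-8193662 (reverse) for Ebp, chr10:76531455-76531604 (forward) for Lss and chr9:57997874-57998023 (forward) for Cyp11a1. Capitals mark a match to CCAAT, read as ATTGG on the other strand, the letters that the factor NF-Y recognises beside SREBP in many sterol promoters. Only windows with a CCAAT match were printed, so its presence in these stretches was fixed by the choice. Pmvk and Cyp11a1 also have a window without it. In Hmgcs1 capitals also mark a match to the sterol response element TCACNCCAC. Matches were searched on both strands, and none of those shown overlaps another.
Hmgcs1: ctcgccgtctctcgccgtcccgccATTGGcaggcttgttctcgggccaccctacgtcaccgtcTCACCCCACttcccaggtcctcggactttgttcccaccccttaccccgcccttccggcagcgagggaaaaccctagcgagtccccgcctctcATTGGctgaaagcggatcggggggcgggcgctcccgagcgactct
Pmvk: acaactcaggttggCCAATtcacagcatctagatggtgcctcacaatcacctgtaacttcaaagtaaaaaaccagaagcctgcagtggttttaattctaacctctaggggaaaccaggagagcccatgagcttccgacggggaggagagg
Cyp51: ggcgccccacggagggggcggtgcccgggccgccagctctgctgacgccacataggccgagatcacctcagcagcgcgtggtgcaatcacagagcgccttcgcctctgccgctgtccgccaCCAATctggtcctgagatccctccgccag
Sc5d: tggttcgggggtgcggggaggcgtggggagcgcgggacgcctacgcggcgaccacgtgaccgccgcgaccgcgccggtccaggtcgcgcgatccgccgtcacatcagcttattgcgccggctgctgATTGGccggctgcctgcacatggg
Ebp: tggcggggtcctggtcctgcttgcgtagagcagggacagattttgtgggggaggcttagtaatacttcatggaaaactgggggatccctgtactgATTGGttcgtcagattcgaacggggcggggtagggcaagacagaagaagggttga
Lss: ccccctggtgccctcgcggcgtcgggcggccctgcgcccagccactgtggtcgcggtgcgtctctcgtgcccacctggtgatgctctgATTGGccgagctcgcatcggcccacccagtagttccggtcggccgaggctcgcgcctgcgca
Cyp11a1: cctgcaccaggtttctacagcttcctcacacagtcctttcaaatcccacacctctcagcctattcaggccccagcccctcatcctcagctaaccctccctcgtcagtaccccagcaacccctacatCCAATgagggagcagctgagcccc

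The windows run from 250 bases before to 50 bases after a gene's start, and 29 of them covered 21 of the 29 listed genes. CCAAT was found in a window of 12 of the 12 sterol enzymes that had one, or in 12 of their 15 windows (80%), against 37.4% of all 32851 windows in the table. It was found in 3 of the 6 windows of the steroid hormone genes (50%). TCACNCCAC, the only letters searched for the sterol response element, was found in Hmgcs1 and in no other listed gene with a window, against 1.24% of all windows. CAAGGNCA, letters bound by SF-1, was found in Dhcr7 alone among these genes (6.71% of all windows), and ACANTGT, the core letters of DMRT1 sites, in Insig2 alone (7.54%). None of the 5 steroid hormone genes with a window (Hsd3b1, Insl3, Fdx1, Cyp11a1 and Fdxr) held CAAGGNCA or ACANTGT. A match is only a description of the letters, since no binding was measured here. A missing match says nothing about sites with other letters or outside these windows.

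In 129Sv, none of the 27 genes passed the test between knockout and wild type (limma, adjusted p under 0.05 over the 12726 genes tested), where 8.31% of all genes did. At an unadjusted p under 0.05 there were 4 genes, or 1 higher (Insig1) and 3 lower (Fdps, Cyp11a1 and Hsd3b1), and 21% of all genes had such a p (10.1% higher and 11% lower). The median log2 difference of the 27 genes was -0.11, and that of all genes tested was -0.01. The 6 steroid hormone genes measured (Star, Cyp11a1, Cyp17a1, Hsd3b1, Nr5a1 and Fdx1) all had negative differences, between -0.29 and -0.19, with a median of -0.26. For 5 genes (Mvd, Dhcr7, Sc5d, Cyp11a1 and Hsd3b1) the highest knockout array was under the lowest wild-type array, and for none was it the other way round. Of all genes, 14.6% lay wholly below and 14.2% wholly above.

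In B6, Hmgcs1 alone of the 27 genes passed the test, and it was higher in the knockout (7.9% of all genes passed, 2.45% higher and 5.45% lower). The median difference of the 27 genes was 0.18, against 0.03 for all genes. The same 6 steroid hormone genes all had positive differences, from 0.14 to 0.48 with a median of 0.34, and without B6 knockout replicate 3 that median was 0.14. The knockout arrays lay wholly above the wild-type arrays for 6 genes (Hmgcs1, Mvk, Pmvk, Mvd, Nsdhl and Ebp), where 14.3% of all genes did, and wholly below for Stard4 (13.4% of all genes). Without B6 knockout replicate 1, 5 genes passed: Hmgcs1, Scarb1, Cyp17a1 and Fdx1 higher and Stard4 lower. None passed without B6 wild-type replicate 1, B6 wild-type replicate 2 or B6 knockout replicate 3, and 9 genes had an unadjusted p under 0.05 in the fit of all arrays, where 24.8% of all genes did.

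The difference between the knockout effects of the strains was tested directly, and it passed for none of the 27 genes (limma), where 1.31% of all genes passed. At an unadjusted p under 0.05 there were 12 genes, or 11 with a lower knockout effect in 129Sv and 1, Insig1, with a higher one, and 16.3% of all genes had such a p (8.64% higher and 7.69% lower). The median over the 6 steroid hormone genes was -0.57, against -0.03 over all genes. Cyp17a1, the enzyme that makes the androgen precursor, differed by -0.72 ± 0.22 (adjusted p = 0.134). Without B6 knockout replicate 1, Scarb1 and Fdx1 passed. Averaged over the strains, Hmgcs1 alone was called, higher in the knockout by 0.23 ± 0.07 (adjusted p = 0.0445, 13.5% of all genes called, 5.62% higher), and it was called under 8 of 25 other settings. Leaving out B6 knockout replicate 3 was among those that lost it.

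Between the wild types, 3 of the 27 genes were lower in 129Sv than in B6 (Pmvk, Cyp51 and Sc5d) and none was higher, where 5.19% of all genes were lower and 10.9% higher. All 3 are sterol enzymes, and the median over the 15 enzymes was -0.15, against 0.06 over all genes. Over 26 other settings Pmvk was called in 15, Cyp51 in 17 and Sc5d in 19. None of the 27 genes was called with any 1 of the B6 wild-type arrays, or 129Sv wild-type replicate 1, left out. In the limma fit of all arrays 6 genes had an unadjusted p under 0.05, where 30.4% of all genes did.

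Between the knockouts, 15 of the 27 genes were lower in 129Sv than in B6 and none was higher, where 13.8% of all genes were lower and 20.3% higher. They were 9 of the 15 sterol enzymes (Pmvk, Mvd, Fdps, Lss, Cyp51, Nsdhl, Ebp, Sc5d and Dhcr7), the lipoprotein receptor gene Scarb1, and 5 of the 6 steroid hormone genes (Cyp11a1, Cyp17a1, Hsd3b1, Nr5a1 and Fdx1). The median difference of the 27 genes was -0.33, against 0.03 over all genes. The 129Sv knockout arrays lay wholly below the B6 knockout arrays for 13 of the 27 genes and wholly above for 2, where 18.8% and 25% of all genes did. Without B6 knockout replicate 3 the sterol enzymes called were 9 of 15, with Mvd lost and Sqle gained (-0.35, adjusted p = 0.024), and the steroid hormone genes 3 of 6, with Nr5a1 and Fdx1 lost. Without 129Sv knockout replicate 3, 8 of the 27 genes were called. With a cross number from the sample titles as a covariate, 3 genes were called, namely Pmvk, Ebp and Cyp17a1. That number was 7 on all 129Sv knockout arrays and on 1 of the 129Sv wild-type arrays, and its meaning is not stated.

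**Figure D1:**
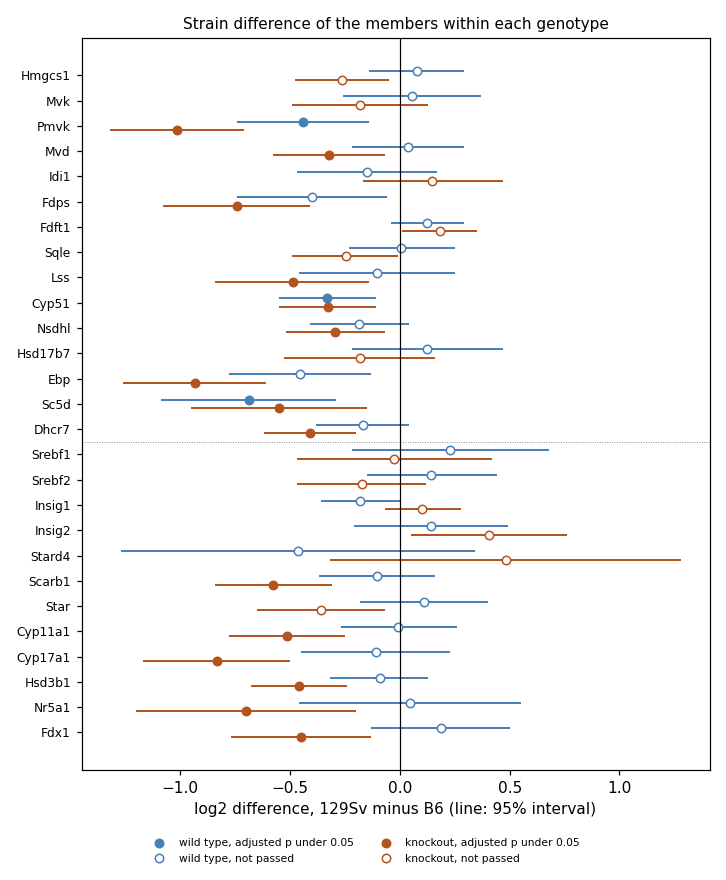
Log2 difference, 129Sv minus B6, of the 27 genes in wild type and in knockout, with 95% intervals from the limma fit; filled points have an adjusted p under 0.05, and a dotted line parts the 15 sterol enzymes from the other 12 genes. In wild type 3 points are filled and in knockout 15, all of them below 0.

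The mevalonate steps open the route. Hmgcs1, which condenses acetyl units into the precursor of mevalonate, read 6656, 6305 and 6232 on the 129Sv wild-type arrays and 7274, 6122 and 6675 on the knockout arrays, and the 2 sets overlap. In B6 it read 5376, 6014 and 6882 in wild type and 7898, 7189 and 9026 in knockout, and the lowest knockout array was above the highest wild-type array. The difference in B6 was 0.40 ± 0.10 on the log2 scale (SE, n = 3, limma adjusted p = 0.0253), a 1.32-fold change, and it was lost under 8 of 26 other settings, among them without B6 knockout replicate 3. The other bright Hmgcs1 probe sets went the opposite way in B6 without passing: 1433445_x_at read 6049, 5584 and 6264 in wild type and 5500, 4925 and 5305 in knockout, a difference of -0.19 ± 0.07. The same difference was -0.15 ± 0.10 for 1433444_at and -0.11 ± 0.10 for 1433446_at. The higher Hmgcs1 level in the B6 knockout was thus called with 1 of its 4 bright probe sets.

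Pmvk, the kinase of the second phosphorylation of mevalonate, separated the strains. In wild type it read 529.7, 644 and 476 in 129Sv and 756, 691 and 781 in B6. In the knockouts it read 495, 429.6 and 459 in 129Sv and 842, 897 and 1066 in B6. All arrays of 129Sv lay below all arrays of B6 in both genotypes, and the gap was wider in the knockouts. It was -0.44 ± 0.14 in wild type (adjusted p = 0.0446) and -1.01 ± 0.14 in knockout (adjusted p = 9.9e-05), and the change of the gap itself was -0.57 ± 0.20 (adjusted p = 0.178). Pmvk between the knockouts was called under all 26 other settings, with differences from -1.37 to -0.92.

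Fdps, which joins isoprene units into farnesyl diphosphate, read 2160, 1622 and 2189 in 129Sv wild type and 1263, 1557 and 1926 in 129Sv knockout. The B6 arrays held 2324, 2759 and 2743 in wild type and 2632, 2948 and 2283 in knockout. The knockout arrays of the 2 strains did not overlap, and 129Sv was lower, with a difference of -0.74 ± 0.16 (adjusted p = 0.00253). Between the wild types, which did not overlap either, the difference was -0.40 ± 0.16 (adjusted p = 0.0991).

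Mvd, which decarboxylates the mevalonate product to isopentenyl diphosphate, read 698, 618 and 699 in 129Sv knockout and 771, 895 and 857 in B6 knockout. Its 2 sets of knockout arrays did not overlap, with a difference of -0.32 ± 0.12 (adjusted p = 0.0461). That call held under only 10 of 26 other settings, and without B6 knockout replicate 3 it was lost at -0.31 (adjusted p = 0.0832). Wild-type Mvd arrays lay between 638.5 and 762 over both strains. Mvk, the first mevalonate kinase, read 263, 276 and 269.8 in B6 wild type and 322, 375 and 378 in B6 knockout. Every B6 knockout array of Mvk was above every B6 wild-type array, yet the difference of 0.41 ± 0.15 did not pass (adjusted p = 0.104). Idi1, which isomerises the isoprene unit, ranged from 2569 to 4163 over the 12 arrays and passed no test.

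**Figure D2:**
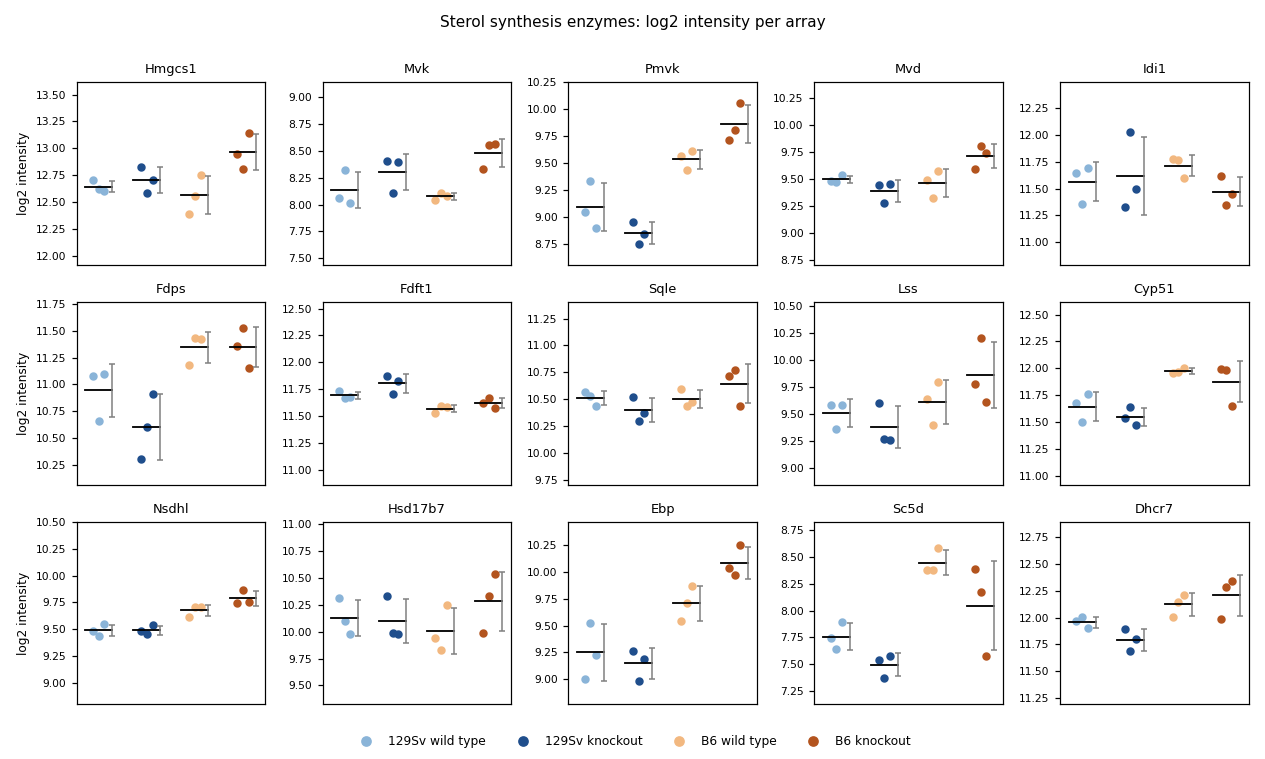
Intensity of the 15 sterol enzymes on each of the 12 arrays, on a log2 axis, in the 4 groups; dots are arrays, black lines are group means and grey bars are SD (n = 3). Pmvk and Ebp show 129Sv knockout arrays at 429.6 to 495 and 508 to 616, below the B6 knockout arrays at 841.8 to 1066 and 1000 to 1214.

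Of the 3 enzymes that make lanosterol, Lss was the one that passed a test. Lss, which closes the ring of lanosterol, read 778, 615 and 613 in 129Sv knockout and 878, 1180 and 783 in B6 knockout. The highest 129Sv array came close to the lowest B6 array, without overlap, and the difference was -0.49 ± 0.17 (adjusted p = 0.0333). Fdft1, which makes squalene, went the other way between the strains: its wild-type arrays read 3406, 3257 and 3268 in 129Sv and 2958, 3089 and 3065 in B6, without overlap, and the difference of 0.12 ± 0.08 did not pass (adjusted p = 0.305). In the knockouts that difference was 0.18 ± 0.08 (adjusted p = 0.0863). Sqle, the monooxygenase that oxidises squalene, ranged from 1260 to 1751 and passed no test.

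Of the 6 enzymes between lanosterol and cholesterol, 2 were lower in 129Sv between the wild types, and 5 between the knockouts. Ebp, the sterol isomerase, read 512, 738 and 601 in 129Sv wild type and 745, 836 and 937 in B6 wild type. In the knockouts it read 616, 508 and 585 in 129Sv and 1051, 1000 and 1214 in B6. The strains did not overlap in either genotype. The difference was -0.45 ± 0.15 between the wild types, which did not pass (adjusted p = 0.0535, and 0.0347 without B6 knockout replicate 3), and -0.93 ± 0.15 between the knockouts (adjusted p = 0.000347), a call kept under all 26 other settings. The difference of the 2 gaps was -0.48 ± 0.21 (adjusted p = 0.285).

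Cyp51, the lanosterol demethylase, read 3267, 2896 and 3465 in 129Sv wild type and 3979, 3990 and 4107 in B6 wild type. In the knockouts it read 2969, 3189 and 2836 in 129Sv and 4069, 4058 and 3218 in B6. No 129Sv array reached the lowest B6 array of the same genotype. The difference was -0.33 ± 0.10 between the wild types (adjusted p = 0.0395) and -0.33 ± 0.10 between the knockouts (adjusted p = 0.023). The other Cyp51 probe sets were lower in 129Sv too: in wild type 1422533_at read 1019, 1022 and 1020 in 129Sv and 1668, 1385 and 1590 in B6, and 1422534_at read 57.0, 62.5 and 76.4 and 136, 115 and 124. Their differences in wild type were -0.60 ± 0.12 (adjusted p = 0.00402) and -0.94 ± 0.18 (adjusted p = 0.00326, with 14.1% of all probe sets called).

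Sc5d, the desaturase before the last steps, read 215, 199 and 237 in 129Sv wild type and 333, 332 and 383 in B6 wild type, with a difference of -0.69 ± 0.19 (adjusted p = 0.0226). In the knockouts it read 187, 166 and 191 in 129Sv and 335, 289 and 191 in B6, where B6 knockout replicate 3 was the lowest of that group and lay just above the highest 129Sv array. That difference was -0.55 ± 0.19 (adjusted p = 0.0353). Dhcr7, which makes cholesterol in the final reduction, read 3803, 3305 and 3568 in 129Sv knockout and 4069, 5004 and 5179 in B6 knockout. Those sets did not overlap, and the difference was -0.41 ± 0.10 (adjusted p = 0.00555), against -0.17 ± 0.10 between the wild types (adjusted p = 0.273).

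Nsdhl, which takes part in the removal of the methyl groups of lanosterol, read 715, 702 and 743 in 129Sv knockout and 857, 934 and 863 in B6 knockout, a difference of -0.30 ± 0.10 (adjusted p = 0.0416, called under 13 of 26 other settings). Its B6 wild-type arrays, at 785, 835 and 835, lay below the B6 knockout arrays and above all 129Sv arrays. Hsd17b7, a ketoreductase of the same demethylation, ranged from 910.6 to 1483 over the 12 arrays and passed no test. Its highest array was B6 knockout replicate 3.

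The 4 regulators passed no gene-level test. Insig1, which retains the SREBP complex when sterol is plentiful, read 5751, 5251 and 6161 in 129Sv wild type and 6507, 7147 and 6135 in 129Sv knockout. B6 arrays read 6658, 6074 and 6693 in wild type and 6437, 6179 and 5797 in knockout. The arrays of both genotypes overlapped in each strain, and the effects were 0.21 ± 0.08 in 129Sv (adjusted p = 0.16) and -0.08 ± 0.08 in B6 (adjusted p = 0.585). The difference of these effects was 0.28 ± 0.12 (adjusted p = 0.254), opposite in sign to that of the other 11 genes with an unadjusted p under 0.05.

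Insig2, its relative, ranged from 291 to 506 with the probe set used for the gene. Another of its probe sets, 1417982_at, was lower in the knockouts averaged over the strains, with a difference of -0.44 ± 0.12 (adjusted p = 0.033 over the 21900 probe sets tested, of which 10.5% were called). Srebf2, which encodes the SREBP that drives sterol synthesis, ranged from 659.6 to 969, and Srebf1, whose product mainly drives fatty acid synthesis, from 331 to 588. Another Srebf2 probe set, 1426744_at, was higher in 129Sv between the knockouts by 0.54 ± 0.17 (adjusted p = 0.026). It read 623.8, 649.4 and 560.9 in 129Sv knockout and 481.9, 501.1 and 309.1 in B6 knockout, where replicate 3 was far below the others.

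Scarb1, the receptor that takes up cholesterol from high-density lipoprotein, read 4137, 4474 and 3655 in 129Sv wild type and 3325, 3661 and 3806 in 129Sv knockout. The B6 readings were 4292, 4501 and 4336 in wild type and 4215, 6147 and 5943 in knockout, where replicates 2 and 3 stood above all other arrays. Between the knockouts 129Sv was lower without overlap, with a difference of -0.58 ± 0.12 (adjusted p = 0.00274), and between the wild types the difference was -0.10 ± 0.12 (adjusted p = 0.619). The effect of the knockout in B6 was 0.29 ± 0.12 (adjusted p = 0.164), and 0.47 without B6 knockout replicate 1, when it passed.

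Stard4, a cytosolic carrier of sterol, read 693, 429.5 and 626 in 129Sv wild type and 530.3, 701 and 522 in 129Sv knockout. In B6 it read 732, 847 and 789 in wild type and 689.8, 601 and 171 in knockout, and replicate 3 was far below the others. The B6 difference was -0.93 ± 0.38 (adjusted p = 0.144), and -0.29 without that array (adjusted p = 0.445). Of its other probe sets, 1429239_a_at read 142, 149 and 157 in 129Sv wild type and 61.5, 61.0 and 64.5 in B6 wild type, a difference of 1.26 ± 0.21 (adjusted p = 0.00155). In the knockouts it was 1.43 ± 0.21 (adjusted p = 0.000286), while the probe set used for the gene gave 0.48 ± 0.38 there (adjusted p = 0.341) and -0.46 ± 0.38 in wild type. Without B6 knockout replicate 3 the difference between the knockouts was -0.15 for the probe set used for the gene. These Stard4 probe sets thus differed in sign between the wild types. The remaining one, 1455011_at, gave 0.07 ± 0.16 between the wild types (adjusted p = 0.826) and -0.15 ± 0.16 between the knockouts (adjusted p = 0.497).

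Of the 6 steroid hormone genes measured, 5 were lower in 129Sv than in B6 between the knockouts, and none passed between the wild types. The intensities of Star, Cyp11a1, Cyp17a1, Hsd3b1 and Nr5a1 summed to 18308 to 19256 in 129Sv wild type, 14760 to 16841 in 129Sv knockout, 18097 to 21490 in B6 wild type and 19802 to 28327 in B6 knockout, whose highest array was replicate 3. The sums of the 2 knockout groups did not overlap, and those of the wild types did. Between the wild types (limma) none of the 6 had an unadjusted p under 0.05, which 30.4% of all genes had.

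Cyp17a1 had the largest difference of the 6 between the knockouts. It read 4409, 5566 and 3982 in 129Sv wild type and 4550, 3324 and 3888 in 129Sv knockout. B6 readings were 4801, 4401 and 5820 in wild type and 5726, 6916 and 8415 in knockout. The strains overlapped in wild type and did not overlap in the knockouts, where the difference of -0.83 ± 0.16 (adjusted p = 0.00116) was called under all 26 other settings. Against their own wild types, the knockouts differed by -0.24 ± 0.16 in 129Sv (adjusted p = 0.426) and by 0.48 ± 0.16 in B6 (adjusted p = 0.0791), and neither passed.

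Cyp11a1, the side-chain cleavage enzyme that makes pregnenolone from cholesterol, read 4192, 4049 and 4131 in 129Sv wild type and 3528, 3120 and 3604 in 129Sv knockout. The knockout arrays were all below the wild-type arrays, and the difference of -0.27 ± 0.12 did not pass (adjusted p = 0.216). In B6 it read 3489, 4192 and 4883 in wild type and 4099, 5173 and 5478 in knockout, with overlap. Between the knockouts the difference was -0.52 ± 0.12 (adjusted p = 0.00555) without overlap. A dim Cyp11a1 probe set that passed the filter, 1439947_at, read 15.9, 25.0 and 18.4 in B6 wild type and 33.0, 37.7 and 36.8 in B6 knockout, a difference of 0.88 ± 0.20 (adjusted p = 0.0195, 5.02% of probe sets called), and 15.7 to 19.5 on the 129Sv arrays.

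Hsd3b1, the dehydrogenase that converts pregnenolone to progesterone, read 5357, 5408 and 5284 in 129Sv wild type and 4933, 4047 and 4804 in 129Sv knockout. The 129Sv knockout arrays were again all below the wild-type arrays, and the difference of -0.23 ± 0.10 did not pass (adjusted p = 0.235). B6 arrays gave 5801, 5459 and 5861 in wild type and 5524, 6001 and 7520 in knockout. Those sets overlapped, and between the knockouts 129Sv was lower, with a difference of -0.46 ± 0.10 (adjusted p = 0.00407). Star, which carries cholesterol to the inner mitochondrial membrane, read 2408, 3202 and 2558 in 129Sv knockout and 3060, 3690 and 3698 in B6 knockout. These overlapped, and the difference of -0.36 ± 0.14 did not pass (adjusted p = 0.0542).

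Nr5a1, which encodes SF-1, read 1421, 1066 and 1050 in 129Sv knockout and 1393, 1527 and 3216 in B6 knockout, and all arrays but 1 of the 12 lay between 1050 and 1527. The high value was B6 knockout replicate 3, and the strain difference between the knockouts, -0.70 ± 0.23 with overlap (adjusted p = 0.0324), became -0.32 and was lost without that array. Fdx1, which passes electrons to CYP11A1, read 2136, 1704 and 1820 in 129Sv knockout and 2017, 2569 and 3252 in B6 knockout. The difference was -0.45 ± 0.15 (adjusted p = 0.031), with overlap, and it too was lost without B6 knockout replicate 3.

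**Figure D3:**
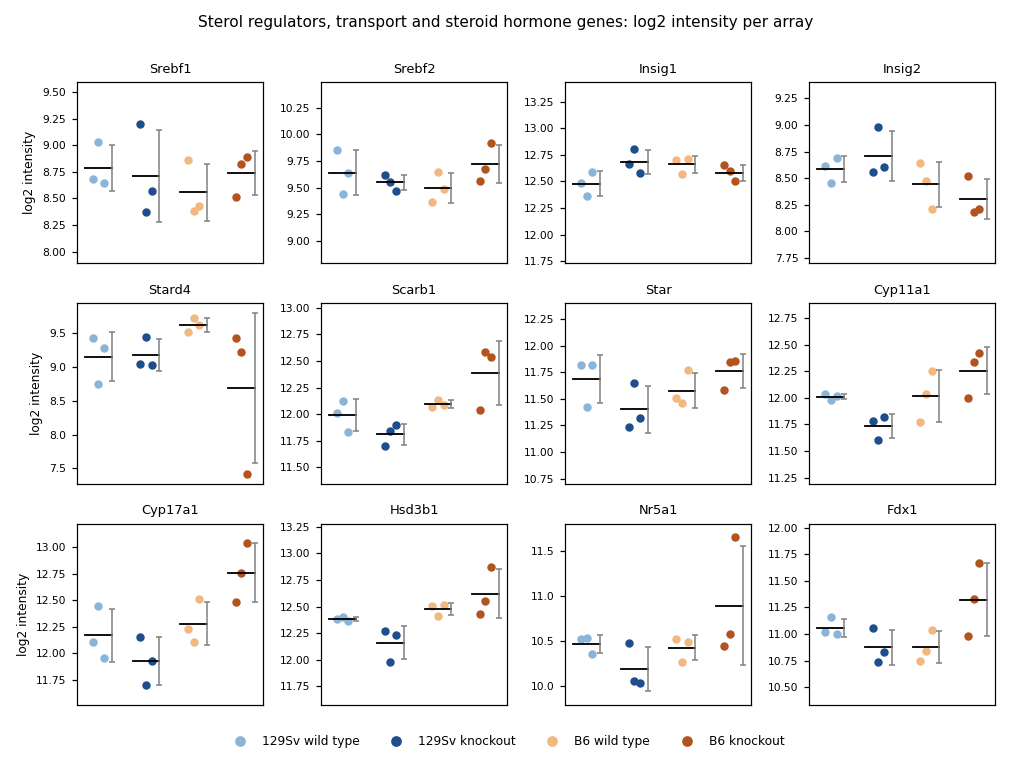
Intensity of the 12 other genes (regulators, transport and steroid hormone synthesis) on each array, on a log2 axis, in the 4 groups; dots are arrays, black lines are group means and grey bars are SD (n = 3). The B6 knockout array at 3216 for Nr5a1 and the one at 171 for Stard4 are both replicate 3.

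**Figure D4:**
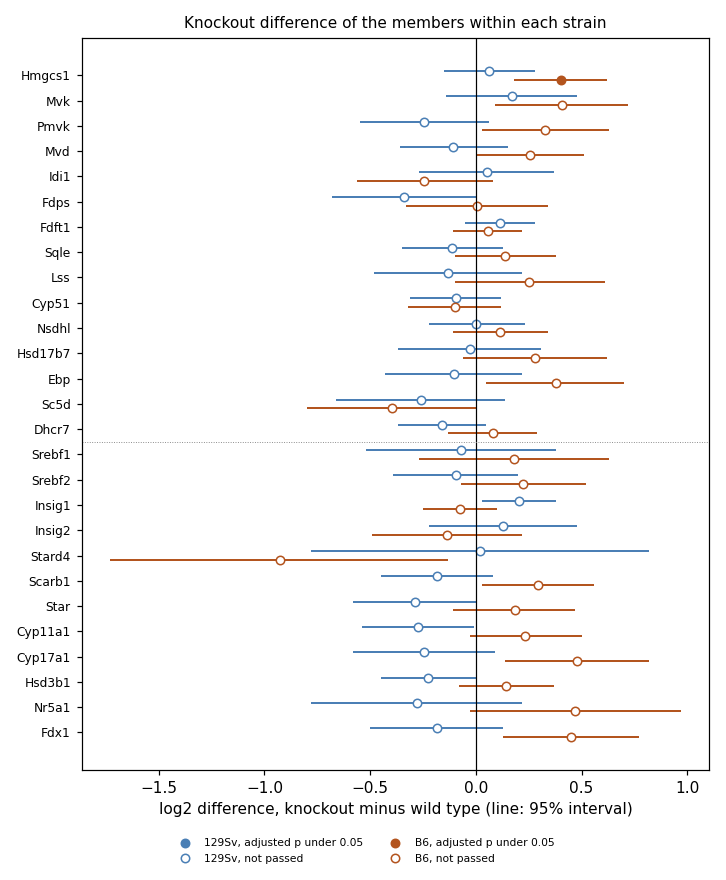
Log2 difference, knockout minus wild type, of the 27 genes in 129Sv and in B6, with 95% intervals from the limma fit; filled points have an adjusted p under 0.05. Hmgcs1 in B6, at 0.40, is the only filled point.

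At the level of probe sets, 52 of the 59 were tested and 50 of the 59 read at least 16 on all 12 arrays. Between the knockouts 25 of the 52 were called, 23 lower and 2 higher in 129Sv, where 12.2% of the 21900 probe sets were lower and 18.6% higher. The 2 higher ones were 1429239_a_at of Stard4 and 1426744_at of Srebf2. Hmgcs1 again held a split: its dim probe set 1441536_at read 23.4, 20.1 and 27.8 in 129Sv knockout and 124, 151 and 67.3 in B6 knockout. The strains differed there by -2.20 ± 0.33 (adjusted p = 0.000332), and in wild type by -1.33 ± 0.33 (adjusted p = 0.0175). The probe set used for the gene gave -0.26 ± 0.10 between the knockouts (adjusted p = 0.0586). The probes' own sequences were not analysed here.

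**Figure D5:**
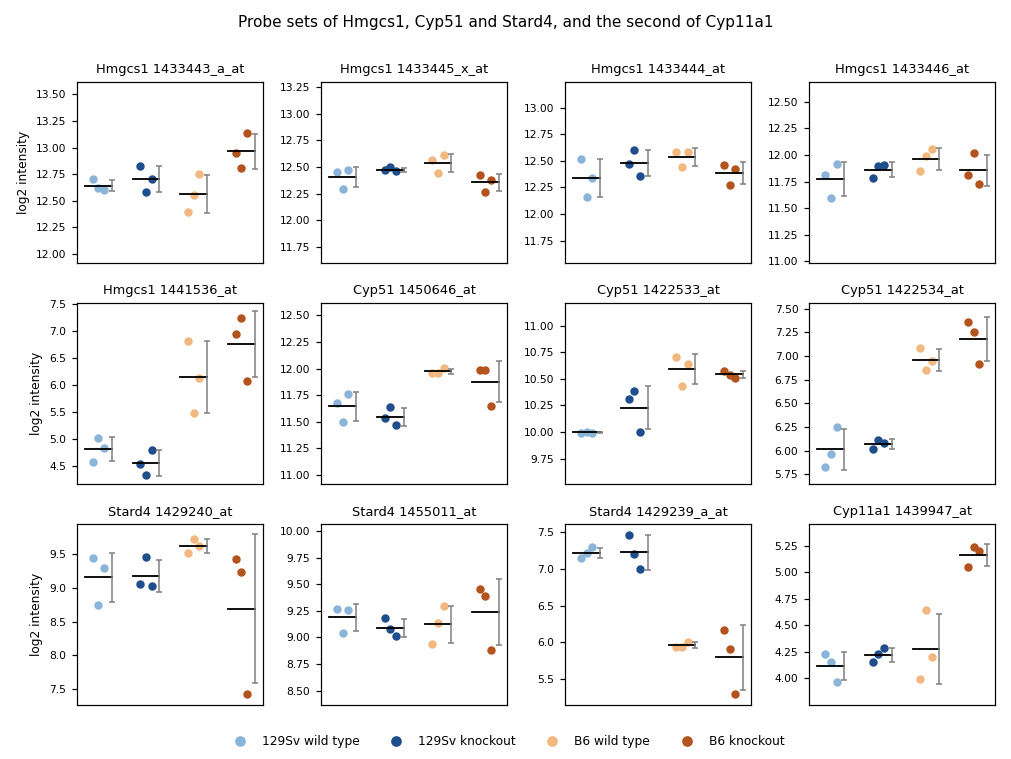
Intensity of the probe sets of genes whose probe sets are compared in the text, on each array, on a log2 axis, in the 4 groups; dots are arrays, black lines are group means and grey bars are SD (n = 3). The Cyp51 probe sets have lower 129Sv than B6 means, and of the 3 Stard4 probe sets 1429239_a_at has higher 129Sv arrays in both genotypes.

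Other genes of the same routes were counted from lists of their own. Fatty acid genes under SREBP were lower in 129Sv than in B6 between the knockouts in 6 of 10 cases, where 13.8% of all genes were lower (median -0.37, against 0.03 over all genes). They were lower in 5 without B6 knockout replicate 3, when Acss2, which makes acetyl-CoA from acetate, was lost. With the title cross number as a covariate, only Scd1 of the 6 was still called. Scd1, the desaturase that makes oleate, read 1884, 1927 and 1766 in 129Sv knockout and 2960, 3148 and 3464 in B6 knockout, a difference of -0.78 ± 0.09 (adjusted p = 2.67e-05). It was lower in 129Sv wild type too, with a difference of -0.62 ± 0.09 (adjusted p = 0.000443). Fads1 and Fads2, desaturases of polyunsaturated fatty acids, differed between the knockouts by -0.77 ± 0.16 and -0.63 ± 0.13, and Fasn, the fatty acid synthase, by -0.38 ± 0.12. Neither knockout contrast called any of these 10 genes. Of 5 other sterol synthesis genes tested, only Tm7sf2, a sterol reductase, was called. It was lower in 129Sv, with differences of -0.80 ± 0.16 between the knockouts (adjusted p = 0.00149) and -0.50 ± 0.16 between the wild types (adjusted p = 0.0431). The first call was lost with the title cross number as a covariate, and the second held under 14 of 26 other settings. Between the knockouts the call was 20% of this list, where 13.8% of all genes were lower. The median of the 5 there was 0.06, and 3 had a positive difference.

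Among 14 genes of sterol sensing, uptake, storage and export, 2 (Abcg1 and Mylip) were higher and 1 (Vldlr) lower in 129Sv between the knockouts, or 21.4% in all, which is no larger a share than over all genes (20.3% higher and 13.8% lower). Abcg1, which exports cholesterol, read 1006, 672 and 1102 in 129Sv wild type and 2093, 2701 and 1885 in 129Sv knockout. It rose there by 1.28 ± 0.17 (adjusted p = 0.000277), the only one of the 14 to pass within 129Sv, and none passed within B6. Averaged over the strains, Abcg1 was higher and Lrp8, another lipoprotein receptor gene, was lower, with a difference of -0.52 ± 0.15 (adjusted p = 0.0308, called under 13 of 24 other settings). In B6 the knockout difference of Abcg1 was 0.47 ± 0.17 (adjusted p = 0.115), and the difference of its effects between the strains was 0.81 ± 0.25 (adjusted p = 0.13). Mylip, the ubiquitin ligase that degrades the low-density lipoprotein receptor, was higher in 129Sv by 1.06 ± 0.18 between the wild types (adjusted p = 0.00115). Between the knockouts Vldlr, a lipoprotein receptor, was lower in 129Sv, with a difference of -1.06 ± 0.26 (adjusted p = 0.00615). The Vldlr difference ranged from -1.29 to -0.32 over 26 other settings and was lost with the mean of all its probe sets and when the title number entered the fit. Abcg1 between the knockouts was lost without 129Sv knockout replicate 2 and without B6 knockout replicate 3, where it was 0.50 (adjusted p = 0.0562).

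Of 10 other steroid hormone genes, Hsd17b3, which makes testosterone and in the fetal mouse testis is known as a Sertoli cell gene, fell in both knockouts. It read 2534, 2668 and 2587 in 129Sv wild type and 1292, 914 and 1242 in 129Sv knockout, and fell by 1.19 ± 0.12 on the log2 scale (adjusted p = 2.74e-05). In B6 it read 1872, 1890 and 1901 in wild type and 1171, 1324 and 1108 in knockout, and fell by 0.66 ± 0.12 (adjusted p = 0.00445). No knockout array reached a wild-type array of its strain. Hsd17b1, another 17-beta dehydrogenase, fell in 129Sv by 1.01 ± 0.25 (adjusted p = 0.0218). That call held under 20 of 26 other settings. It was lost with the title cross number as a covariate, without any 1 129Sv wild-type array, and without 129Sv knockout replicate 1 or 2. Averaged over the strains, Akr1c14 was higher and Hsd17b1 and Hsd17b3 lower, where 13.5% of all genes were called. When the knockouts of the strains were compared, 1 of the 10, Hsd17b4, was higher in 129Sv and 3, Hsd17b1, Cyb5b and Esr1, were lower. Each of these calls was lost with the title cross number as a covariate. Of all genes, 20.3% were higher and 13.8% lower there.

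Of 18 other genes known from fetal Leydig cells or their control, 11 were lower in 129Sv than in B6 between the knockouts and none was higher (median -0.48, against 0.03). Of all genes, 13.8% were lower and 20.3% higher. Some of the 18 also stand on the cell type lists below, and Tcf21 is counted as lower on both. Without B6 knockout replicate 3, 10 were lower, and Crhr1, a receptor gene, was lost. With the title cross number as a covariate, only Gata6 and Sct of the 11 were still called. Nr0b1, which encodes a repressor of SF-1, read 276, 343 and 221 in B6 wild type and 467, 492 and 568 in B6 knockout and rose there by 0.88 ± 0.19 (adjusted p = 0.00894). It was lower in 129Sv than in B6, with differences of -1.26 ± 0.19 between the knockouts (adjusted p = 0.000159) and -0.92 ± 0.19 between the wild types (adjusted p = 0.00436). Vsnl1, a calcium sensor, was lower in 129Sv between the knockouts, with a difference of -1.31 ± 0.19 (adjusted p = 0.000167). Gata4 and Gata6, transcription factors of the gonadal soma, were among the 11, at -0.42 ± 0.12 and -0.70 ± 0.16. Mgarp, a mitochondrial protein gene of steroidogenic tissue, fell in the 129Sv knockout by 0.65 ± 0.14 (adjusted p = 0.00786). This call too was lost with the title cross number as a covariate.

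Marker lists of other cell types were compared in the same contrast, in which 20.3% of all genes were higher and 13.8% lower. Between the knockouts, 6 of 7 germ cell genes were higher and 1 lower in 129Sv, and their intensities summed to 15734 to 20219 in 129Sv knockout and 6555 to 10200 in B6 knockout, against 17560 to 18747 and 13628 to 15075 in the wild types. Of 11 Sertoli cell genes 5 were lower, with sums of 17606 to 20601 in 129Sv knockout and 21945 to 24781 in B6 knockout, against 22312 to 24325 and 24358 to 25668 in the wild types. Of 7 endothelial genes 4 were lower, with sums of 1304 to 1535 and 1984 to 2194, against 1673 to 1862 and 1736 to 1865 in the wild types. Of 8 interstitial and peritubular genes 4 were lower, of 6 macrophage genes 2, and of 4 red blood cell genes 1, and none of these was higher. With each array left out in turn, the number lower ran from 3 to 5 for Sertoli, 1 to 4 for endothelial, 2 to 4 for interstitial, 0 to 3 for macrophage and 1 to 2 for red blood cell genes. The endothelial count was 1 without replicate 2 of either knockout group, and the Sertoli count was 3 without either of those or without 129Sv knockout replicate 1. Macrophage genes were at 0 without any 1 of 129Sv knockout replicates 1 and 3 and B6 knockout replicate 2, and interstitial genes at 2 without 129Sv knockout replicate 2.

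Adrenal cortex, which shares the steroidogenic genes, was checked through genes of its own, 5 of which were tested. Between the wild types Cyp21a1, the adrenal 21-hydroxylase, and Hsd11b2, which inactivates corticosterone, were higher in 129Sv. Between the knockouts Cyp21a1 was higher and Mrap, the accessory protein of the ACTH receptor, lower. Both calls were lost without some single arrays, that of Mrap without B6 knockout replicate 3. The intensities on the 12 arrays were 21 to 106 for Cyp21a1, 57.6 to 224 for Cyp11b1, 101 to 193 for Mc2r, 81.3 to 197 for Mrap, 1532 to 2695 for Hsd11b2, and 2.92 to 4.15 for Cyp11b2, which makes aldosterone. Their sums were 2923 to 3073 in 129Sv wild type, 2369 to 3059 in 129Sv knockout, 1970 to 2503 in B6 wild type and 2635 to 2719 in B6 knockout. The part of these cell types in the strain difference of the sterol and steroid genes was not tested.

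The steroidogenic genes also varied from array to array inside the groups. With the group means removed, the median Pearson correlation over 12 arrays was 0.52 for 10 pairs of steroidogenic genes, 0.13 for 105 pairs of sterol enzymes and 0.22 for 75 pairs across both. Without B6 knockout replicate 3 these were 0.40, 0.23 and 0.42. The points are arrays that share RNA quality and normalisation, so these values are descriptive. The genes most like the mean of Star, Cyp11a1, Cyp17a1 and Hsd3b1 were Haus8 (r = 0.994), Rabep1 (0.959) and Ctdsp1 (0.953), and Fads1 was among the first 10 (0.934). Those most like the 15 sterol enzymes were Utrn (0.966), Zhx3 (0.964) and Arhgap20os (0.932). Both sets were picked as the highest among the 12726 genes tested, members left out, so the choice itself favours high r values.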

How the data were processed

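Testis RNA was hybridised to 1 array per sample, in 4 groups of 3 taken from the sample descriptions. The deposited intensities are linear values per probe set that the authors made with GCRMA, per the submitters' processing notes, whose version the sources used here do not give. GCRMA models the background from each probe's bases, sets all arrays to like distributions and combines probes, so a shift of all genes on an array is removed. The design assumed log2 values, and log2 was taken here.

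The platform annotation gave the gene names: 34958 probe sets had 1 gene, 932 several and 9211 none, and 34754 of the 34958 had an Entrez identifier in the RefSeq table of GRCm38.p6, which changed no symbol. Where a gene had several probe sets, the one brightest on average stood for it. The filter kept genes that reached a log2 intensity of 4 (intensity 16) on 3 or more arrays, 12726 in number, and a second fit took 21900 probe sets, each as its own feature. The 13 control probe sets with a gene name stayed out.

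With limma 3.58.1 (R 4.3.3), lmFit estimated the 4 group means over the 12 arrays and eBayes used a variance trend, with 8 residual and 6.71 prior degrees of freedom. Benjamini-Hochberg adjustment ran over all features tested, with 0.05 as the threshold. Errors after ± are standard errors. Dmrt1 was also compared by an exact permutation test. The number of arrays limits the precision. The fit was tested on simulated data.

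The members, the other lists and the tests were chosen with earlier results of these data known. All members were named. Genes of other lists that are named passed the threshold in a contrast described, and not all that passed are named. Other genes were named by the highest correlation with the mean standardised profile of a member group after group means were removed. Of the adrenal list, all measured genes were named. Alternatives changed the filter, the probe set of a gene, the scaling (quantile, median), the floor, the variance model, array weights, the arrays fitted, the replicate block, a shared title number as a random block, and the Actb ratio or a title number as a covariate, and left out each array in turn. Leaving out both arrays of the highest Actb ratio was added after the data were seen.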

Additional observations from a re-analysis of the deposited data

How the results depend on the processing

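No called difference reversed under any alternative that fitted 1 value per gene. Reversal was not scored in the fit with each probe set taken alone, where the other bright Hmgcs1 probe sets went the opposite way in B6. Strain differences between the knockouts, 15 genes, fell to 8 with only the groups compared and to 3 with the title number as a covariate, and ranged from 8 to 15 with each array left out. Between the wild types, 3 genes became 1 without the variance trend, 1 with the replicate block and 5 without both arrays of the highest Actb ratio, with a range of 0 to 4 with each array left out. In the B6 knockout, 1 gene became 0 without the trend, with only the groups compared, with the Actb ratio as a covariate and without both arrays, 6 with array weights and 2 with each probe set taken alone, with a range of 0 to 5. In the 129Sv knockout, 0 became 1 with array weights (Star), 3 with the Actb ratio as a covariate (Cyp17a1, Hsd3b1 and Nr5a1) and 1 without both arrays (Nr5a1), with a range of 0 to 0. The difference of effects, 0, became 1 with array weights, with a range of 0 to 2. The average effect, 1, became 0 without a filter, with the mean of all probe sets, quantile normalisation, a floor at a log2 value of 4, no trend, the Actb ratio or title number as a covariate and without both arrays, 3 with array weights and 2 with each probe set taken alone, with a range of 0 to 1. For member probe sets the ranges with each array left out were 0 to 0 in the 129Sv knockout, 1 to 4 in B6 (2 in the full fit), 0 to 1 for the difference of effects, 0 to 2 for the average (2), 3 to 8 between the wild types (6) and 17 to 24 between the knockouts (25). Deviations of arrays of the same replicate number correlated at -0.14, -0.47 and -0.09 in 129Sv and 0.008, 0.003 and -0.04 in B6. These are deviations from means of 3 arrays, so they cannot show whether arrays were paired. In B6, the wild-type and knockout arrays of replicate 1 shared the first number of the sample title. The B6 arrays of replicate 2 did so too. With that shared number as a random block, the consensus correlation was 0.158. The replicate block moved no other count by more than 1.5 times. The cause of these changes was not tested. Intensities below 16 carry little signal, which limits 7 of the 59 probe sets.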
